A study of Mus musculus with 20 samples.

Results

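WT Dex+ cells, mesoderm-derived cells in which Gata4 had been activated, were compared with WT PE, the primitive endoderm that the same transgene produced directly from ES cells. The rule took the 2 WT Dex+ and the 2 WT PE arrays out of 20 Affymetrix MOE430v2 arrays in the series, and all 18194 genes with a probe set of a single symbol, each represented by whichever of its probe sets was brightest on average across all 20. Both groups came from J1 ES cells (strain 129sv/Jae) carrying Gata4GR, a fusion of Gata4 with the part of the glucocorticoid receptor that binds hormone, expressed from the CAG promoter and activated by dexamethasone (Dex). For PE, ES cells received 100 nM Dex for 4 days on gelatin in medium with 10% serum and 2000 U/ml LIF. For Dex+ cells, ES cells were differentiated for 4 days on type IV collagen, cells positive for both Flk1 and PDGFRα were sorted, and these were cultured for 4 more days on type IV collagen with 10% serum and 100 nM Dex. Dex- cells were the same sorted cells cultured without Dex. The comparison is set beside the same one in DKO cells, which lack Dnmt3a and Dnmt3b (Dnmt3a-/-Dnmt3b-/-) and carry the same transgene. Each genotype was represented by 1 transgenic clone, and the study describes the outcome of the collagen culture as unstable. The starting cell, LIF, the culture medium and the substrate all differ between Dex+ cells and PE, so their contributions cannot be told apart.

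Primitive endoderm is the extraembryonic layer that forms beside the epiblast and gives rise to visceral endoderm, an absorptive and secretory epithelium, and to parietal endoderm, which lays down a thick basement membrane. Gata4 and Gata6 are zinc finger factors that can install this programme in ES cells, and the same factors also act in heart and lateral mesoderm. Flk1-positive mesoderm can yield smooth muscle and other mural cells, endothelium, blood and cardiac muscle. Dnmt3a and Dnmt3b are the enzymes that set new DNA methylation.

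Each pair of arrays is labelled as biological replicates, from independent experiments according to the methods. The WT PE replicates differed by 2-fold or more at 20 genes and the WT Dex+ replicates at 256. The WT PE arrays were scanned on days 2 and 3 and both WT Dex+ arrays on day 3, and the 4 arrays shared a chip lot. The DKO PE and DKO Dex+ arrays had the same scan days and chip lot. Hybridisation runs were 2 and 3 for PE of both genotypes, 3 and 5 for WT Dex+, and 6 and 5 for DKO Dex+. Thus Dex+ cells shared a run with PE in WT and not in DKO, and the effect of run was not tested. Of the 9 measured control genes, none passed the test described below, but Tbp came close to its 2-fold limit (-0.96 ± 0.17, adjusted p = 0.000531) and passed without WT Dex+ replicate 1 (-1.21), and Actb differed by 0.51 ± 0.12, adjusted p = 0.00462. Dnmt3b, deleted in DKO cells, was at 12.06 and 12.30 in WT PE against 6.64 and 6.85 in DKO PE. Dnmt3a was at 8.30 and 8.58 in WT PE against 6.18 and 6.64 in DKO PE. For both genes the PE arrays of the genotypes did not overlap.

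WT Dex+ cells carried a smooth muscle, interstitial matrix and mesenchymal profile, and WT PE carried the endoderm factors, endocytic receptors and basement membrane laminins together with many pluripotency genes. All values are on the log2 scale after RMA, a method that corrects, normalises and summarises array signals, so that a step of 1 is a 2-fold change. Differences are WT Dex+ minus WT PE with the standard error of the limma model after ±, and a gene is called higher or lower only where it passed, that is with a Benjamini-Hochberg adjusted p under 0.05 and a change of at least 2-fold. Of 18194 genes, 1116 were higher in WT Dex+ cells (6.13%) and 1128 were lower (6.2%). The count of each list below is to be read beside these shares. At least 4-fold changes were found for 446 of the higher and 305 of the lower genes. The median change over all genes was 0.001. In each of the 2244 genes that passed the WT Dex+ arrays lay both above or both below the WT PE arrays. The arrays were separated in this way in 11239 of all 18194 genes, so the separation is no further support for the calls. With scan day as a block 2248 genes passed, and within scan day 3, which holds both WT Dex+ arrays and WT PE replicate 2, 2238 passed. With 2 arrays against 2, an exact permutation test of a single gene can give no two-sided p below 0.333. Because these are bulk samples, fewer cells of a type and less RNA per cell cannot be told apart in any of the values below.

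**Figure D1:**
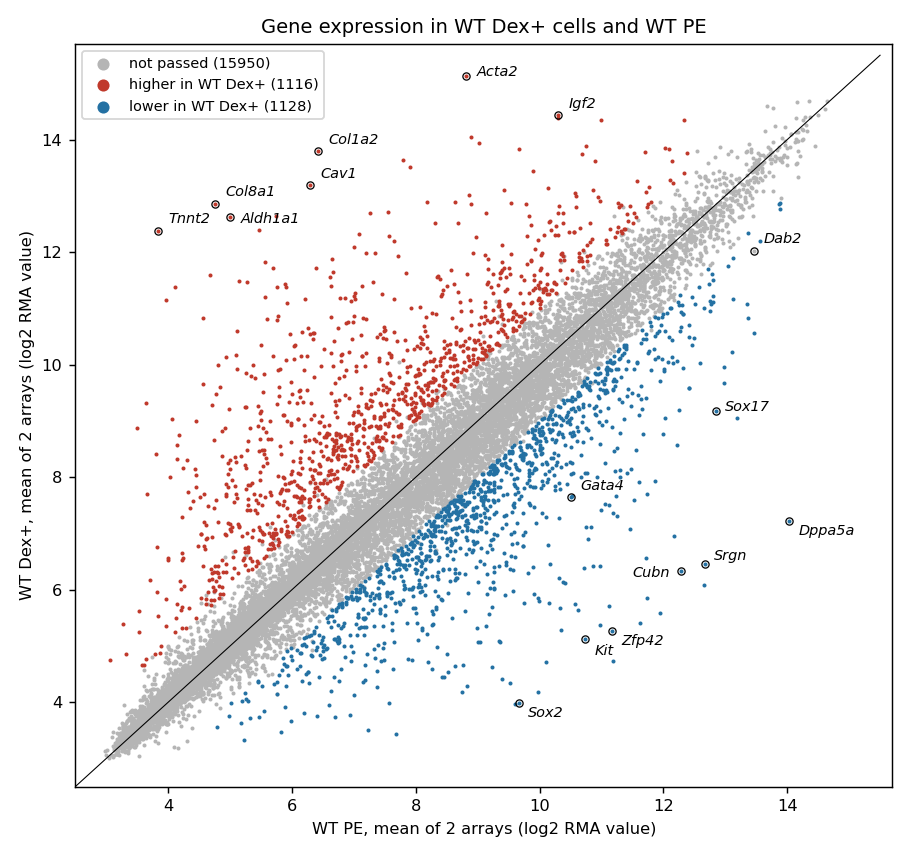
Mean log2 RMA value of each of 18194 genes in WT PE (horizontal axis) and in WT Dex+ cells (vertical axis), 2 arrays each, with the line of equal values. Red and blue points are the 1116 higher and 1128 lower genes, grey points did not pass, and circles mark named genes, from Acta2 and Tnnt2 far above the line to Dppa5a, Srgn and Sox2 far below it.

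The levels of the genes that passed were followed through the other WT states as a description, and their order in WT PE and WT Dex+ cells was fixed by the choice of genes. Replicate 1 of the sorted Flk1+ cells came from the parental line without the transgene. The 1116 genes higher in WT Dex+ cells had a median level of 7.01 in WT ES cells, 7.94 in sorted WT Flk1+ mesoderm, 9.46 in WT Dex- cells, 9.37 in WT Dex+ cells and 7.12 in WT PE. Their level was thus as high in mesoderm cultured without Dex as with it. The 1128 lower genes stood at 9.13 in WT ES cells, 8.35 in WT Flk1+ cells, 7.07 in WT Dex- cells, 7.30 in WT Dex+ cells and 9.12 in WT PE. The median over all genes lay between 6.82 and 6.86 in these 5 states.

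The largest increase was that of Tnnt2, cardiac troponin T, which was at 12.93 and 11.84 in the WT Dex+ arrays and at 4.06 and 3.61 in the WT PE arrays. The difference was 8.55 ± 0.53, adjusted p = 2.66e-08, the largest of the 18194 genes. Next came Col8a1, a network-forming collagen of vessel walls, at 12.66 and 13.07 in the WT Dex+ arrays and at 4.82 and 4.69 in the WT PE arrays (8.11 ± 0.50, adjusted p = 2.05e-08). Aldh1a1, a retinaldehyde dehydrogenase, was at 12.30 and 12.94 in the WT Dex+ arrays and at 5.37 and 4.64 in the WT PE arrays (7.62 ± 0.40, adjusted p = 4.05e-09). In both WT PE arrays these 3 genes were below the median of all genes. Other genes among the 15 largest increases encode the inducible prostaglandin synthase Ptgs2 (7.27), the basement membrane collagen Col4a5 (7.17), the membrane protein Emp1 (6.93), the caveolar coat protein Cav1 (6.90), the actin-associated Synpo (6.26) and the gelatinase Mmp2 (6.26). The remaining 6, Col1a1, Col1a2, Col5a2, Postn, Acta2 and Tgfb2, are described with their lists.

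Among the 15 largest decreases, Dppa5a, an RNA-binding protein of ES cells, was at 7.23 and 7.22 in the WT Dex+ arrays and at 14.09 and 13.99 in the WT PE arrays (-6.81 ± 0.14, adjusted p = 2.78e-13). Trap1a, an X-linked gene of tumour and extraembryonic cells, was at 5.46 and 6.71 in the WT Dex+ arrays and at 12.79 and 12.51 in the WT PE arrays (-6.57 ± 0.56, adjusted p = 5.8e-07). Mageb16, another X-linked gene, was at 4.40 and 5.08 in the WT Dex+ arrays and at 11.33 and 11.04 in the WT PE arrays (-6.45 ± 0.85, adjusted p = 4.47e-05). The 2 groups of arrays were separated by more than 5 log2 units for each of these 3 genes. Also lower were Pga5, a pepsinogen (-5.88), Serpinb6c, a serine protease inhibitor (-5.60), and Ankrd33b, an ankyrin repeat protein (-5.79). The other 9 were Fbxo15, Zfp42, Sox2, Dppa2, Dnmt3l, Kit, Cubn, Pth1r and Srgn, given below with their lists. Of the 30 genes, 16 had several probe sets, and all probe sets of each of these changed in the same direction.

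The transcription factors of primitive endoderm were lower in WT Dex+ cells. Of 8 measured members of the list 0 were higher, 6 lower and 2 did not pass, with a median change of -2.32. Gata4 itself was at 7.60 and 7.70 in the WT Dex+ arrays and at 10.26 and 10.76 in the WT PE arrays (-2.86 ± 0.20, adjusted p = 7.32e-08). The other Gata4 probe set went the same way, with a change of -1.72. Whether either of them reads the transgene was not examined. Sox7, an SRY-box factor of endoderm, was at 6.92 and 7.25 in the WT Dex+ arrays and at 11.52 and 11.39 in the WT PE arrays (-4.37 ± 0.23, adjusted p = 4.67e-09). Sox17, its close relative, was at 8.85 and 9.49 in the WT Dex+ arrays and at 12.91 and 12.80 in the WT PE arrays (-3.68 ± 0.73, adjusted p = 0.00151). The WT Dex+ arrays thus lay well below WT PE for both. In WT Dex- cells the means were lower again, 5.45 for Sox7 and 6.47 for Sox17, and in WT ES cells they were 5.43 and 5.09. Gata6 was at 8.38 and 8.54 in the WT Dex+ arrays and at 11.15 and 11.27 in the WT PE arrays (-2.75 ± 0.28, adjusted p = 3.57e-06). Its mean in WT Dex- cells, 8.54, was within the range of the WT Dex+ arrays, so that WT PE alone was high among the 3. Foxa2, a forkhead factor, was at 7.91 and 8.56 in the WT Dex+ arrays and at 10.14 and 10.10 in the WT PE arrays, a change of -1.88 that did not pass without WT Dex+ replicate 1 (-1.56, adjusted p = 0.0597). Foxq1 was at 9.19 and 10.19 in the WT Dex+ arrays and at 10.57 and 10.27 in the WT PE arrays and did not pass (-0.73 ± 0.41, adjusted p = 0.26). The WT Dex+ replicates of Foxq1 were 1 log2 unit apart. For Hnf4a, a nuclear receptor of visceral endoderm, the probe set used gave -1.20 and passed, its 3 other probe sets gave -1.39, -0.41 and 0.06. The first and last of these lack the suffix that marks possible cross-hybridisation, and they disagree.

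The endocytic machinery of visceral endoderm, which takes up maternal proteins, showed the same direction for its receptors. Of 8 measured members 0 were higher, 5 lower and 3 did not pass (list median -1.60), and 3 were lower without WT Dex+ replicate 1 and without either WT PE array. Cubn, the receptor cubilin, was at 6.38 and 6.28 in the WT Dex+ arrays and at 11.90 and 12.67 in the WT PE arrays (-5.96 ± 0.41, adjusted p = 6.94e-08). Amn, the transmembrane partner of cubilin, was at 5.00 and 5.15 in the WT Dex+ arrays and at 9.22 and 8.85 in the WT PE arrays (-3.96 ± 0.27, adjusted p = 6.21e-08). Myo6, a motor of endocytic vesicles, was at 7.72 and 7.99 in the WT Dex+ arrays and at 10.19 and 10.31 in the WT PE arrays (-2.40 ± 0.30, adjusted p = 3.02e-05). Cubn and Amn in WT Dex+ cells were no higher than in WT ES cells, where their means were 6.39 and 5.86. Dab2, the clathrin adaptor used as a marker of primitive endoderm, was at 11.80 and 12.26 in the WT Dex+ arrays and at 13.37 and 13.57 in the WT PE arrays, and this difference did not pass (-1.44 ± 0.54, adjusted p = 0.0724). The Dab2 difference passed with scan day (-1.80, adjusted p = 0.0183) or chip lot (-1.44, adjusted p = 0.0128) as a block. It also passed on the 4 compared arrays alone (-1.44, adjusted p = 0.00287) and with all its probe sets averaged (-1.76, adjusted p = 0.000125). Within scan day 3, where WT PE has 1 array, only the change is given (-1.54). Under the other normalisations and with a replicate block the Dab2 difference did not pass. All 4 Dab2 probe sets had a lower mean in WT Dex+ cells, with changes of -2.81 to -1.07. Dab2 was at 11.79 and 11.99 in the WT Dex- arrays, which overlapped with WT Dex+, and at a mean of 7.55 in WT ES cells.

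The 250 bases upstream of a Dab2 start (RefSeq, GRCm38.p6, chr15:6299539-6299788, + strand) are shown because Dab2 is the marker whose RNA was high in both groups. At the protein level the study saw it otherwise. After staining of the collagen culture, it reported no round Dab2-positive cells among WT Flk1+ cells given Dex. Capitals mark the GATAA match, the core letters that GATA factors recognise, searched on both strands.

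Dab2: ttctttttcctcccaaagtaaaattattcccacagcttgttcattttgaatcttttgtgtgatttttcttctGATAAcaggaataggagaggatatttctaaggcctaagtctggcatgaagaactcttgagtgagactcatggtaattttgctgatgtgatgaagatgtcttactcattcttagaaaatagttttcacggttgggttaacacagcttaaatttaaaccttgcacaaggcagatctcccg

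Such a match was held by 22.6% of all 32851 promoter windows of this length and by 2 of 7 genes of the endocytic list with a window, so its presence describes the letters and not a site in use.

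Secreted proteins of visceral endoderm were mostly low in both groups. Of 15 measured members 0 were higher, 4 lower and 11 did not pass (list median -0.19), and 2 were lower without WT PE replicate 2. Spink1, a trypsin inhibitor, was at 5.14 and 6.22 in the WT Dex+ arrays and at 10.16 and 10.51 in the WT PE arrays (-4.65 ± 0.44, adjusted p = 1.73e-06). Mttp, which loads lipid onto apolipoproteins, was at 6.72 and 6.85 in the WT Dex+ arrays and at 8.16 and 8.44 in the WT PE arrays (-1.52 ± 0.17, adjusted p = 7.48e-06). Apoe was at 10.57 and 10.86 in the WT Dex+ arrays and at 11.98 and 11.96 in the WT PE arrays (-1.26), a difference that did not pass without any one of the 4 arrays (-1.40 to -1.11). Its mean in WT Dex- cells was 7.10, so Apoe was far higher with Dex in the collagen culture than without it (3.61). Afp, the alpha-fetoprotein of later visceral endoderm, was at 4.93 and 4.85 in the WT Dex+ arrays and at 5.32 and 5.16 in the WT PE arrays and did not pass (-0.35 ± 0.13, adjusted p = 0.0783). Ttr, the thyroxine carrier, was at 6.90 and 7.15 in the WT Dex+ arrays and at 7.62 and 7.83 in the WT PE arrays on the brightest probe set, which did not pass because it missed the 2-fold limit (-0.70 ± 0.19, adjusted p = 0.0124). Its 3 other probe sets gave differences of -4.70 to -4.46, so the probe sets of Ttr disagree in size.

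Among parietal endoderm and basement membrane genes, 2 of 14 were higher, 7 lower and 5 did not pass (list median -0.88). Pth1r, the parathyroid hormone receptor, was at 5.42 and 5.39 in the WT Dex+ arrays and at 11.51 and 11.72 in the WT PE arrays (-6.21 ± 0.30, adjusted p = 2.31e-09). Srgn, the proteoglycan core protein serglycin, was at 6.50 and 6.44 in the WT Dex+ arrays and at 12.52 and 12.82 in the WT PE arrays (-6.20 ± 0.28, adjusted p = 1.33e-09). Both were at low values in WT Dex+ cells. The laminin chain Lama1 was at 10.49 and 10.64 in the WT Dex+ arrays and at 13.43 and 13.50 in the WT PE arrays (-2.89 ± 0.38, adjusted p = 4.85e-05), and its partners Lamc1 (-2.13) and Lamb1 (-1.10) were lower too. All 3 chains of this laminin were lower. Col4a1, a chain of type IV collagen, was bright in both groups, at 13.90 and 13.88 in the WT Dex+ arrays and at 14.51 and 14.38 in the WT PE arrays, and missed the 2-fold limit (-0.55 ± 0.18, adjusted p = 0.0362). Both higher genes of the list lost their call without some single arrays, while their changes kept their sign. Nid2, a linker of laminin and collagen, was at 11.31 and 11.33 in the WT Dex+ arrays and at 10.15 and 10.25 in the WT PE arrays (1.12) and did not pass without WT PE replicate 1 (1.07, adjusted p = 0.0505) or with scan day as a block (0.97). Thbd, thrombomodulin, was at 9.08 and 8.73 in the WT Dex+ arrays and at 7.57 and 7.15 in the WT PE arrays (1.55) and did not pass without WT Dex+ replicate 1 (1.37) or WT PE replicate 2 (1.34).

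Most enzymes and chaperones that fold collagen did not pass. Of 18 members 1 was higher, 4 were lower and 13 did not pass (list median -0.39), and 2 were lower without WT PE replicate 2. The member that was higher was Creb3l1, a transcription factor of secretory cells that was at 10.18 and 9.65 in the WT Dex+ arrays and at 6.83 and 6.92 in the WT PE arrays (3.04 ± 0.26, adjusted p = 6.74e-07). P4ha1, a collagen prolyl hydroxylase, was at 10.81 and 11.30 in the WT Dex+ arrays and at 12.43 and 12.19 in the WT PE arrays (-1.25 ± 0.24, adjusted p = 0.00104). Of 15 lysosomal genes 0 were higher, 2 lower and 13 did not pass (list median -0.11). That count is near the 12.3% of all genes that passed. The proteases Ctsh (-2.29) and Ctsc (-1.85) were the 2 that were lower. Ctsh was at 7.87 and 8.91 in the WT Dex+ arrays and at 10.46 and 10.89 in the WT PE arrays, and its mean in WT Dex- cells was 5.64. With all probe sets of a gene averaged, Ctsc gave -0.76 and did not pass.

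Epithelial genes were lower and mesenchymal genes higher in WT Dex+ cells. Of 24 epithelial junction genes and keratins 3 were higher, 11 lower and 10 did not pass (list median -1.05). Without WT Dex+ replicate 1, 7 were lower, and without WT Dex+ replicate 2 or WT PE replicate 2, 1 was higher. Epcam, an epithelial adhesion molecule, was at 5.80 and 7.05 in the WT Dex+ arrays and at a mean of 10.97 in the WT PE arrays (-4.54 ± 0.39, adjusted p = 6.37e-07). Esrp1, an epithelial splicing regulator, was at 4.77 and 5.40 in the WT Dex+ arrays and at 9.22 and 9.46 in the WT PE arrays (-4.26 ± 0.35, adjusted p = 3.72e-07). Ap1m2, a subunit of an epithelial sorting adaptor, was at 5.51 and 6.33 in the WT Dex+ arrays and at 10.04 and 9.78 in the WT PE arrays (-3.99 ± 0.30, adjusted p = 1.79e-07). For Epcam, Esrp1 and Ap1m2 both groups were separated by more than 3 log2 units, and the WT ES means were 13.14, 10.77 and 10.06. Cdh1, E-cadherin, was at 7.48 and 8.64 in the WT Dex+ arrays and at 10.48 and 10.53 in the WT PE arrays, and its change of -2.45 did not pass without WT Dex+ replicate 1 (-1.87) or either WT PE array (-2.47 and -2.42). The WT Dex+ arrays differed from each other for several of these genes, replicate 2 being the higher for Epcam, Cdh1 and Cldn6 (6.39 and 8.67). Krt19 ran the other way, at 12.29 and 12.68 in the WT Dex+ arrays and at 10.20 and 9.54 in the WT PE arrays (2.62 ± 0.55, adjusted p = 0.00224). The summed level of the epithelial list, the log2 of the sum over the list on the linear scale, ran from 15.25 to 15.35 in WT Dex+ and from 14.91 to 15.01 in WT PE arrays, opposite in sign to its median.

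Of 12 mesenchymal transition factors and cadherins 6 were higher, 0 lower and 6 did not pass (list median 1.24). Cdh2, N-cadherin, was at 12.44 and 12.94 in the WT Dex+ arrays and at 7.70 and 6.84 in the WT PE arrays (5.42 ± 0.41, adjusted p = 1.91e-07). Cdh11, a cadherin of mesenchyme, was at 9.06 and 8.69 in the WT Dex+ arrays and at 3.53 and 3.46 in the WT PE arrays (5.38 ± 0.24, adjusted p = 1.31e-09). Snai2, a repressor of epithelial genes, was at 11.62 and 11.16 in the WT Dex+ arrays and at 6.77 and 6.48 in the WT PE arrays (4.76 ± 0.51, adjusted p = 5.99e-06). Every one of these 3 genes had its WT Dex+ arrays above all WT PE arrays by more than 4 log2 units. Zeb2 (3.93) and the intermediate filament Vim (3.15) were also higher. Snai1, the relative of Snai2, was at 6.33 and 6.37 in the WT Dex+ arrays and at 7.29 and 7.13 in the WT PE arrays and missed the 2-fold limit (-0.87 ± 0.20, adjusted p = 0.0048).

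Smooth muscle genes were the list with the highest median. Of 22 members 15 were higher, 0 lower and 7 did not pass (list median 2.34). Acta2, smooth muscle actin, was at 15.12 and 15.14 in the WT Dex+ arrays and at 8.87 and 8.77 in the WT PE arrays (6.32 ± 0.40, adjusted p = 3.5e-08), and its other 2 probe sets gave 5.39 and 2.01. Tagln, the actin-binding transgelin, was at 14.42 and 14.35 in the WT Dex+ arrays and at 10.25 and 10.34 in the WT PE arrays (4.08 ± 0.43, adjusted p = 5.86e-06). Myl9, a myosin regulatory light chain, was at 10.46 and 9.86 in the WT Dex+ arrays and at 5.48 and 5.92 in the WT PE arrays (4.46 ± 0.44, adjusted p = 3.01e-06). The WT Dex- means were close to these levels for Acta2 (15.10), Tagln (14.37) and Myl9 (9.83). Tpm2 (4.16), Actg2 (3.70) and the pericyte genes Pdgfrb (4.85) and Mcam (3.45) were higher as well. Myocd, the coactivator of serum response factor in muscle, was at 8.88 and 9.48 in the WT Dex+ arrays and at 5.51 and 5.49 in the WT PE arrays (3.68 ± 0.41, adjusted p = 1.01e-05). Unlike the contractile genes, Myocd was at 5.42 and 5.45 in WT Dex- cells, near its level in WT PE.

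The CArG box is the letter pattern that serum response factor recognises, and the upstream windows of a smooth muscle and a cardiac gene that were both higher are shown for it. Each is the 250 bases before a start (RefSeq, GRCm38.p6), Myl9 at chr2:156775214-156775463 on the + strand and Actc1 at chr2:114052876-114053125 on the - strand, with the match in capitals. Matches were sought on both strands, and a match can share an end base with a GATAA match.

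Myl9: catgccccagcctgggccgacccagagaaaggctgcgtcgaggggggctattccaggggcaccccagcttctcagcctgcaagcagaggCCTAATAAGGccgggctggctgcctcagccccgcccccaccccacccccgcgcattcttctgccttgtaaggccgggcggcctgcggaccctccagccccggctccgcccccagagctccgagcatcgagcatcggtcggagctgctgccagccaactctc

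Actc1: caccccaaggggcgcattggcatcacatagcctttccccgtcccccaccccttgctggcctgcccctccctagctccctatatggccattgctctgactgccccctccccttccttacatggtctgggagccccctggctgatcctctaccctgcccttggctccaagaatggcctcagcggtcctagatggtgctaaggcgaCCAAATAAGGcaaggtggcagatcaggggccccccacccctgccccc

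In Myl9 the match ended 152 bases before the start and in Actc1 38 bases before it. Of all 32851 windows 1.47% held a CArG match. Windows were given for 17 of the smooth muscle genes, and 2 genes, Myl9 and Cnn2, held it. Of 18 cardiac genes with a window 3 held it, Actc1, Myl3 and Myl7. These are matches of letters, and binding was not measured here.

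Interstitial matrix genes were also higher. Of 23 members 14 were higher, 0 lower and 9 did not pass (list median 2.04). Col1a2, a chain of type I collagen, was at 13.72 and 13.87 in the WT Dex+ arrays and at 6.62 and 6.22 in the WT PE arrays (7.37 ± 0.49, adjusted p = 5.69e-08). The partner chain Col1a1 was at 12.86 and 12.43 in the WT Dex+ arrays and at 5.80 and 5.68 in the WT PE arrays (6.90 ± 0.42, adjusted p = 1.75e-08). Postn, the matricellular protein periostin, was at 12.59 and 12.21 in the WT Dex+ arrays and at 5.67 and 5.27 in the WT PE arrays (6.93 ± 0.40, adjusted p = 1.06e-08). In each WT PE array these 3 genes were below 7. The fibril collagens Col5a2 (6.34), Col3a1 (5.10) and Col5a1 (4.73), tenascin Tnc (4.75) and thrombospondin Thbs1 (4.42) were higher too. The WT Dex- mean of Col1a1, 13.50, and that of Col3a1, 11.33, were above the WT Dex+ means of 12.64 and 9.66, but those differences did not pass (-0.86 ± 0.42, adjusted p = 0.441 for Col1a1 and -1.66 ± 0.67, adjusted p = 0.298 for Col3a1).

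**Figure D2:**
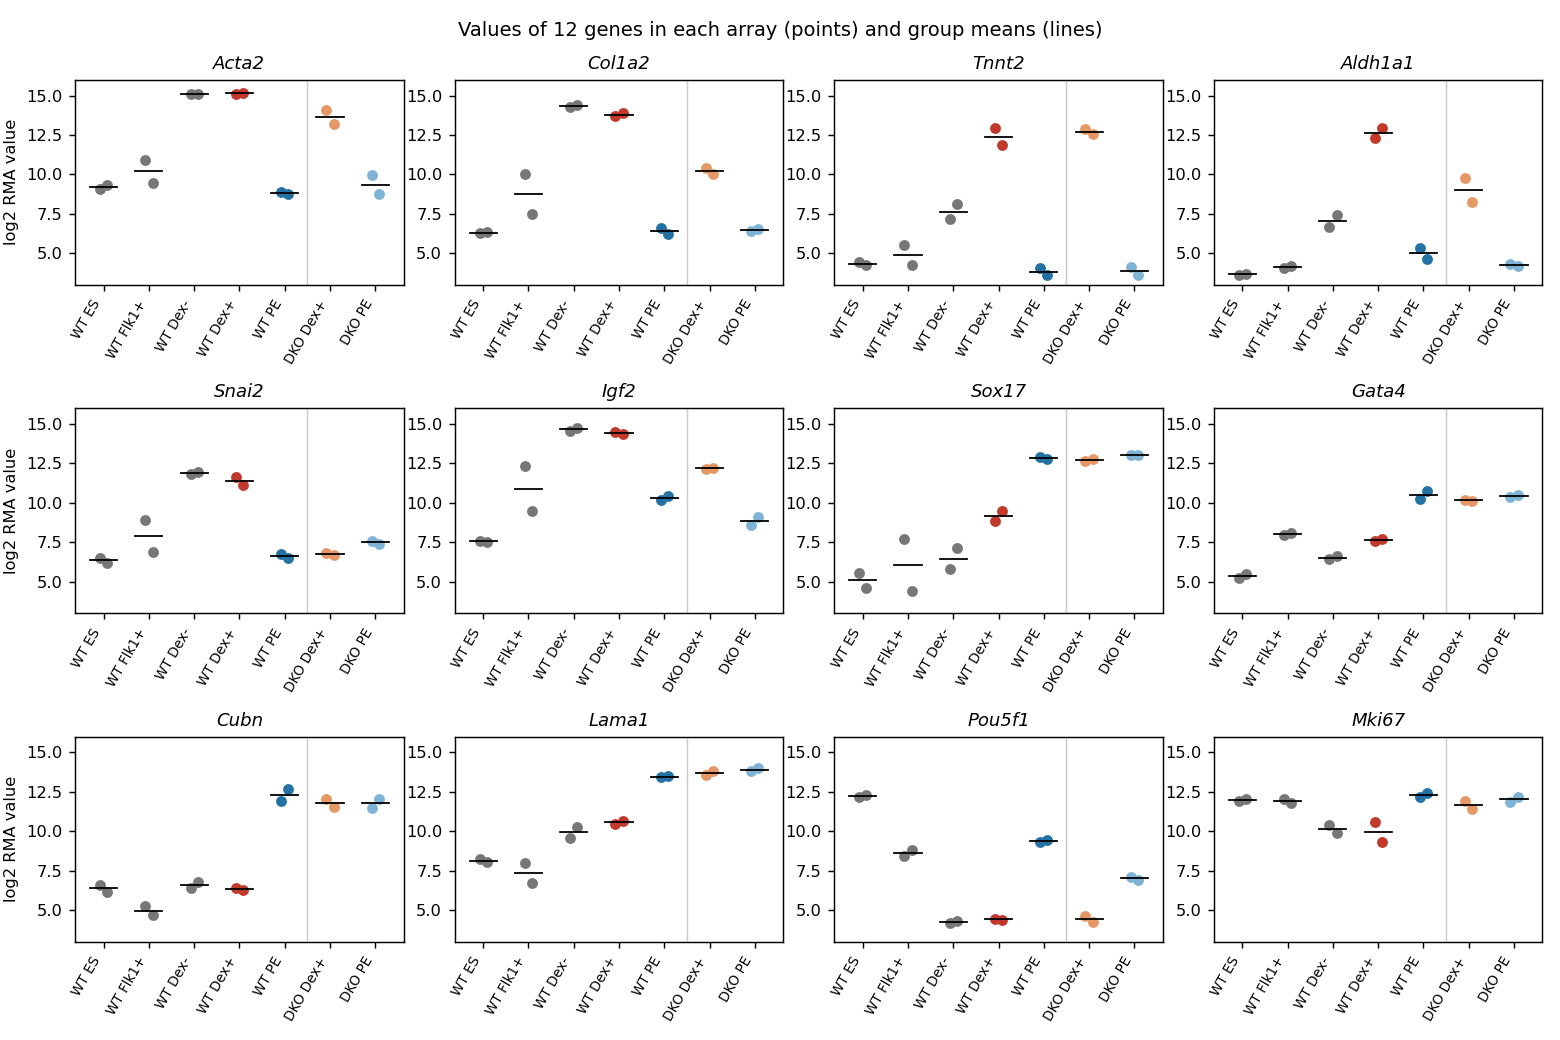
Log2 RMA values (vertical axis) of 12 genes in 7 groups (horizontal axis), with a point for each array and a line for the group mean. Acta2, Col1a2, Snai2 and Igf2 were high in WT Dex- and WT Dex+ cells, Tnnt2 and Aldh1a1 were highest of the 5 WT states in WT Dex+ cells, and Sox17, Gata4, Cubn and Lama1 were highest in WT PE among the WT states.

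Transcription factors of lateral plate mesoderm and the heart fields were in part higher. Of 17 members 8 were higher, 0 lower and 9 did not pass (list median 0.88). Tbx20, a T-box factor of the heart, was at 12.57 and 12.85 in the WT Dex+ arrays and at 8.06 and 7.04 in the WT PE arrays (5.16 ± 0.51, adjusted p = 2.62e-06). Hand2, a basic helix-loop-helix factor, was at 9.93 and 9.04 in the WT Dex+ arrays and at 5.92 and 6.10 in the WT PE arrays (3.48 ± 0.39, adjusted p = 1.01e-05). Prrx2 (2.18) and Meis2 (1.72) were higher by less. The other higher members were Tbx18 (1.47), Mef2c (1.39), Hand1 (1.37) and Foxf1 (1.35). With all probe sets of a gene averaged, these gave 0.70 to 0.95 and did not pass. Foxf1 also did not pass without WT Dex+ replicate 1 (1.18) or either WT PE array (1.36 and 1.335). Cardiac sarcomere genes were split. Of 19 members 7 were higher, 1 was lower and 11 did not pass (list median 0.44).

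Beside Tnnt2, the atrial light chain Myl7 was at 10.02 and 10.28 in the WT Dex+ arrays and at 6.11 and 6.19 in the WT PE arrays (4.00 ± 0.22, adjusted p = 5.12e-09). Mybpc3, cardiac myosin-binding protein C, was at 10.97 and 10.09 in the WT Dex+ arrays and at 7.12 and 7.12 in the WT PE arrays (3.40 ± 0.25, adjusted p = 1.22e-07). Actc1, cardiac actin, was at 10.00 and 9.52 in the WT Dex+ arrays and at 5.41 and 5.41 in the WT PE arrays (4.35 ± 0.56, adjusted p = 3.79e-05). For all of these the WT Dex+ arrays were clear of WT PE. The WT Dex- means were 7.63 for Tnnt2, 5.72 for Myl7 and 7.10 for Mybpc3. Against Dex- the 2 WT Dex+ arrays were higher by 4.75 for Tnnt2, 4.43 for Myl7 and 3.43 for Mybpc3, and each passed (that comparison shares the WT Dex+ arrays with the main one). Myh7, the slow myosin heavy chain, was the member that was lower, at 6.09 and 6.36 in the WT Dex+ arrays and at 7.59 and 7.69 in the WT PE arrays (-1.42 ± 0.27, adjusted p = 0.00105).

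Markers of other cell types that such cultures could hold were set beside the 12.3% of all genes that passed. Of 15 endothelial genes 2 were higher, 0 lower and 13 did not pass (list median 0.10). Their summed level ran from 11.92 to 12.03 in WT Dex+ and from 11.20 to 11.59 in WT PE arrays. Kdr, which encodes Flk1, was at 8.48 and 9.84 in the WT Dex+ arrays and at 7.15 and 6.97 in the WT PE arrays (2.10 ± 0.31, adjusted p = 0.000112). The other higher gene, Tek, did not pass without WT Dex+ replicate 1 (0.84), WT Dex+ replicate 2 (1.27) or WT PE replicate 2 (0.61). The endothelial cadherin Cdh5 was at 4.79 and 4.70 in the WT Dex+ arrays and at 4.96 and 5.10 in the WT PE arrays and Tie1 at 4.24 and 4.22 in the WT Dex+ arrays and at 4.49 and 4.57 in the WT PE arrays, and neither passed (-0.28 and -0.30). None of 14 blood genes passed in either direction (list median 0.10). The summed level of the blood list ran from 10.03 to 10.21 in WT Dex+ and from 9.97 to 10.06 in WT PE arrays, so the groups overlapped. Of 11 neuroectoderm genes 2 were higher and 1 lower (list median 0.09), with a summed level of 11.42 to 11.91 in WT Dex+ and 9.88 to 9.97 in WT PE arrays. Nes, an intermediate filament also made by mural and muscle precursors, was higher (2.81), and Otx2, a homeobox gene of epiblast and anterior endoderm, was lower (-2.56). The other higher gene of this list was Sox3 (1.335), which gave 0.80 and did not pass with all its probe sets averaged. Tubb3 did not pass (1.36), though it passed under some alternatives and not under others. Of 8 trophoblast genes 2 were higher and 2 lower (list median 0.16), and without each array in turn 1 was higher, because Plac1 then did not pass (1.42 to 1.95). The other higher gene was Gata3 (2.08), and Eomes (-2.23) and Tfap2c (-2.13) were lower. Without probe sets that may cross-hybridise, Tfap2c gave -0.63 and did not pass. The defining trophoblast factors Cdx2 and Elf5 did not pass (0.25 and 0.18). The part of any of these cell types in the differences was not tested.

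Pluripotency genes gave the most negative list median. Of 29 members 0 were higher, 24 lower and 5 did not pass (list median -2.79). Pou5f1, which encodes Oct3/4, was at 4.46 and 4.37 in the WT Dex+ arrays and at 9.34 and 9.45 in the WT PE arrays (-4.98 ± 0.23, adjusted p = 1.64e-09). Sox2 was at 3.97 and 4.03 in the WT Dex+ arrays and at 9.67 and 9.66 in the WT PE arrays (-5.67 ± 0.60, adjusted p = 5.76e-06). Zfp42, or Rex1, was at 5.30 and 5.25 in the WT Dex+ arrays and at 11.15 and 11.19 in the WT PE arrays (-5.90 ± 0.45, adjusted p = 1.82e-07). For each of these the WT PE arrays lay between WT Dex+ and WT ES cells, whose means were 12.25 for Pou5f1, 12.70 for Sox2 and 13.61 for Zfp42. Fbxo15 (-6.36), Dppa2 (-5.64), Tdgf1 (-5.39) and Fgf4 (-4.01) were lower as well. The summed level of the list ran from 12.39 to 12.86 in WT Dex+ and from 15.71 to 15.79 in WT PE arrays. The protocol given names no sort for PE. By staining, the study found Dab2 in all cells once Gata4GR was activated in WT ES cells with LIF. The part of remaining ES-like cells in the differences reported here was not tested.

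LIF was present for PE and is not listed for the Dex+ culture. Of 11 genes of LIF signalling and STAT3 targets 0 were higher, 3 lower and 8 did not pass (list median -0.33). Socs3, a feedback inhibitor that STAT3 induces, was at 7.54 and 7.08 in the WT Dex+ arrays and at 11.30 and 11.19 in the WT PE arrays (-3.93 ± 0.27, adjusted p = 7.6e-08). Its mean was 10.27 in WT ES cells and 7.47 in WT Dex- cells. The receptor chain Lifr was at 11.48 and 10.96 in the WT Dex+ arrays and at 12.05 and 11.69 in the WT PE arrays and did not pass (-0.65 ± 0.34, adjusted p = 0.21).

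The DNA methylation machinery was lower in WT Dex+ cells. Of 8 members 0 were higher, 4 lower and 4 did not pass (list median -1.44). Dnmt3b was at 6.82 and 7.10 in the WT Dex+ arrays and at 12.06 and 12.30 in the WT PE arrays (-5.22 ± 0.22, adjusted p = 5.72e-10). Dnmt3l, the cofactor of the new methyltransferases, was at 5.59 and 5.84 in the WT Dex+ arrays and at 11.36 and 10.89 in the WT PE arrays (-5.41 ± 0.30, adjusted p = 6.85e-09). Tet1 (-2.35) and Uhrf1 (-1.90) were lower too. Dnmt3a was at 7.47 and 7.46 in the WT Dex+ arrays and at 8.30 and 8.58 in the WT PE arrays and just missed the 2-fold limit (-0.97 ± 0.19, adjusted p = 0.00144), and its 5 probe sets gave -0.98 to 0.53. It passed with scan day as a block (-1.13) and within scan day 3 (-1.11). Of 19 germline genes, several of which are held silent by DNA methylation, 0 were higher and 4 lower (list median -0.11). Ddx4, a helicase of germ cells, was at 3.57 and 4.27 in the WT Dex+ arrays and at 5.99 and 5.79 in the WT PE arrays (-1.97 ± 0.26, adjusted p = 4.25e-05).

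Receptor tyrosine kinases and their ligands moved in both directions. Of 25 receptor tyrosine kinases and ligands 7 were higher, 4 lower and 14 did not pass (list median 0.05). Kit, the stem cell factor receptor, was at 4.91 and 5.33 in the WT Dex+ arrays and at 10.81 and 10.66 in the WT PE arrays (-5.62 ± 0.30, adjusted p = 5.45e-09). Pdgfra, a marker of primitive endoderm and, with Flk1, the basis of the sort that gave the Dex+ cells, was at 9.12 and 8.97 in the WT Dex+ arrays and at 13.19 and 13.19 in the WT PE arrays (-4.14 ± 0.23, adjusted p = 8.35e-09). Its mean was 12.36 in sorted WT Flk1+ cells and 6.66 in WT Dex- cells. Igf1r (2.94), the ligands Pdgfc (3.85) and Vegfc (2.71) and the receptors Met (2.21) and Fgfr1 (2.11) were higher.

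In the BMP and TGF-beta pathway 8 of 21 genes were higher, 5 lower and 8 did not pass (list median 0.12). Some of the ligands were among the higher genes. Tgfb2 was at 11.46 and 11.50 in the WT Dex+ arrays and at 5.75 and 4.80 in the WT PE arrays (6.20 ± 0.85, adjusted p = 6.76e-05). Inhba, a subunit of activin, was at 11.19 and 11.21 in the WT Dex+ arrays and at 5.49 and 5.63 in the WT PE arrays (5.64 ± 0.29, adjusted p = 3.22e-09). Bmp4 was at 11.70 and 10.65 in the WT Dex+ arrays and at 7.06 and 6.97 in the WT PE arrays (4.16 ± 0.69, adjusted p = 0.000342). The inhibitory Smad6 (3.21) was higher, and among the Id target genes Id2 (-3.21) and Id4 (-3.52) were lower. Fst, an extracellular activin antagonist, was at 8.97 and 9.43 in the WT Dex+ arrays and at 12.23 and 12.26 in the WT PE arrays (-3.04 ± 0.35, adjusted p = 1.11e-05). In WT Dex- cells Fst was at 4.79 and 6.26, below WT Dex+ cells.

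In the retinoic acid pathway 2 of 10 genes were higher, 1 was lower and 7 did not pass (list median 0.41). Without WT Dex+ replicate 1 or within scan day 3, 1 was higher, and without WT Dex+ replicate 2, 2 were lower. The synthetic enzyme Aldh1a1 was among the largest increases above. Cyp26a1, which degrades retinoic acid, was at 7.29 and 8.10 in the WT Dex+ arrays and at 11.67 and 11.80 in the WT PE arrays (-4.04 ± 0.24, adjusted p = 1.73e-08). Genes that the glucocorticoid receptor itself controls were examined because Dex was given to both groups. Of 17 of these 3 were higher, 4 lower and 10 did not pass (list median 0.18). Mt2, a metallothionein, was at 8.89 and 8.66 in the WT Dex+ arrays and at 11.86 and 12.12 in the WT PE arrays (-3.21 ± 0.32, adjusted p = 3.25e-06), and Dusp1, a MAP kinase phosphatase, was at 12.15 and 11.98 in the WT Dex+ arrays and at 9.99 and 9.86 in the WT PE arrays (2.13 ± 0.27, adjusted p = 3.72e-05). The summed level of this list was lower in WT Dex+ (14.14 to 14.39) than in WT PE arrays (14.83 to 14.87), opposite in sign to its median. Fkbp5, a classic target, was at 6.70 and 7.67 in the WT Dex+ arrays and at 8.38 and 8.55 in the WT PE arrays, a change of -1.28 that did not pass without WT Dex+ replicate 1 (-0.80) or either WT PE array (-1.36 and -1.20).

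Imprinted genes had the second highest list median (2.23), with 14 of 23 higher, 1 lower and 8 that did not pass, and none was lower without WT PE replicate 2. Igf2, the fetal growth factor, was at 14.49 and 14.39 in the WT Dex+ arrays and at 10.18 and 10.42 in the WT PE arrays (4.14 ± 0.59, adjusted p = 9.35e-05). Cdkn1c, a cell cycle inhibitor, was at 12.46 and 12.17 in the WT Dex+ arrays and at 6.94 and 7.23 in the WT PE arrays (5.23 ± 0.32, adjusted p = 2.01e-08). Plagl1, a zinc finger factor, was at 14.17 and 13.91 in the WT Dex+ arrays and at 8.94 and 8.84 in the WT PE arrays (5.15 ± 0.29, adjusted p = 8.32e-09). All 3 were also high in WT Dex- cells, with means of 14.65, 13.32 and 14.11. Mest (4.21), Grb10 (3.06), Dlk1 (4.62), Nnat (3.54) and the noncoding Rian (2.89) were higher. Meg3, a noncoding RNA of the same cluster as Dlk1 and Rian, was at 12.80 and 11.45 in the WT Dex+ arrays and at 9.19 and 9.62 in the WT PE arrays, and its change of 2.72 did not pass without WT Dex+ replicate 1 (2.05) or within scan day 3 (2.51). Hox genes were mostly at low values. Of 33 members 2 were higher, 1 was lower and 30 did not pass (list median 0.02), and the lower gene, Hoxc13, did not pass without either WT Dex+ array (-1.02 and -1.13) or WT PE replicate 1 (-0.68). This count is no larger a share than the 12.3% of all genes that passed. The 2 higher genes were Hoxb2 (1.43) and Hoxb5 (1.41).

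Proliferation genes were lower in WT Dex+ cells. Of 19 members 0 were higher, 14 lower and 5 did not pass (list median -1.56). Mki67 was at 10.56 and 9.32 in the WT Dex+ arrays and at 12.17 and 12.46 in the WT PE arrays (-2.37 ± 0.30, adjusted p = 3.69e-05). Ccna2, cyclin A2, was at 9.79 and 9.01 in the WT Dex+ arrays and at 11.71 and 11.74 in the WT PE arrays (-2.32 ± 0.30, adjusted p = 4.39e-05). Top2a, a topoisomerase of cycling cells, was at 10.89 and 10.04 in the WT Dex+ arrays and at 12.48 and 12.53 in the WT PE arrays (-2.04 ± 0.25, adjusted p = 2.22e-05). In all 3 genes WT Dex+ replicate 2 was the lower of its pair, and both replicates lay below WT PE. Of 10 cell cycle inhibitors and p53 targets 2 were higher and 8 did not pass (list median 0.33), beside 6.13% of all genes that were higher. The other higher gene beside Cdkn2b, Cdkn2a, did not pass without WT Dex+ replicate 2 (0.88) or WT PE replicate 1 (1.30). Cdkn2b was at 11.47 and 11.78 in the WT Dex+ arrays and at 7.92 and 7.77 in the WT PE arrays (3.78 ± 0.50, adjusted p = 4.59e-05). Cdkn1a was at 13.28 and 13.42 in the WT Dex+ arrays and at 12.81 and 12.33 in the WT PE arrays and did not pass (0.78 ± 0.45, adjusted p = 0.27). Of 13 genes of class I antigen presentation and interferon response 0 were higher, 3 lower and 10 did not pass (list median 0.19), and 3 were higher within scan day 3. Ifitm1 gave the largest change (-1.94).

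**Figure D3:**
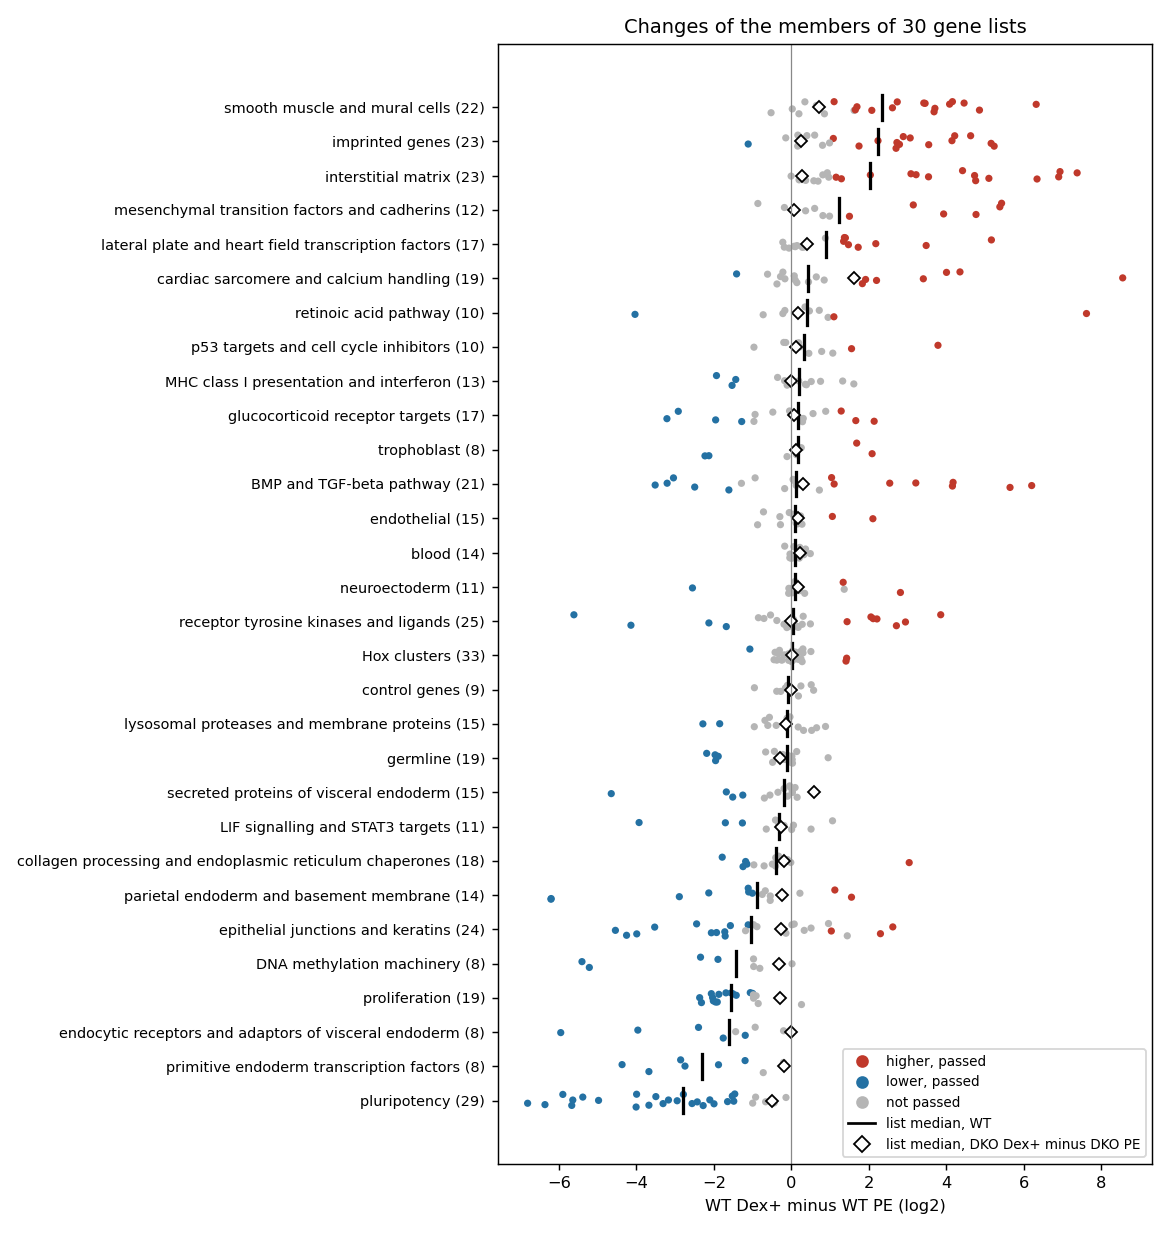
WT Dex+ minus WT PE on the log2 scale (horizontal axis) for the measured members of 30 gene lists (vertical axis, number measured in brackets), with lists ordered by their median. Points are genes, red and blue where they passed, black bars are WT medians from -2.79 for pluripotency to 2.34 for smooth muscle, and diamonds are the medians of the same lists for DKO Dex+ minus DKO PE.

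The same comparison in DKO cells uses none of the same arrays. There 496 genes were higher in DKO Dex+ cells than in DKO PE (2.73%) and 317 were lower (1.74%). Both genotypes shared 294 higher genes, which were 26.3% of the WT and 59.3% of the DKO genes, and 186 lower genes, which were 16.5% of the WT and 58.7% of the DKO genes. The 1116 genes higher in WT had a median change of 1.74 in WT and 0.55 in DKO, and the 1128 lower genes had medians of -1.52 and -0.45. The WT values of these medians were fixed by the choice of genes. Whether the difference itself differed was tested as WT difference minus DKO difference, in which 595 genes were higher (3.27%) and 642 lower (3.53%). Of the genes that passed in WT, 474 of the higher and 477 of the lower ones also passed this test in the same direction. This test holds the WT difference by which those genes were chosen, so the overlap is partly fixed by that choice. Genotype and clone cannot be told apart in these values.

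Some genes separated Dex+ cells from PE in both genotypes. Tnnt2 changed by 8.55 in WT and 8.84 in DKO, with a difference of -0.29 ± 0.76, adjusted p = 0.927. Mest changed by 4.21 in WT and 4.38 in DKO, with a difference of -0.17 ± 0.52, adjusted p = 0.94. Cdh2 changed by 5.42 and 5.27, with a difference of 0.15 ± 0.58, adjusted p = 0.953. A difference that does not pass does not show equal changes, and its standard error gives the precision. Dnmt3l changed by -5.41 in WT and -4.49 in DKO, so that this gene was lower in Dex+ cells of both.

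Of the 10 largest positive differences, 5 were those of members of the lists, Col1a1 and Postn of the interstitial matrix, Snai2 of the mesenchymal factors, Pdgfrb of the smooth muscle and Meg3 of the imprinted genes. Cav1 was at 6.55 and 6.28 in DKO Dex+ arrays and at 6.32 and 6.22 in DKO PE, against 13.19 and 13.20 in WT Dex+ and 6.22 and 6.36 in WT PE (WT difference minus DKO difference 6.76 ± 0.73, adjusted p = 3.69e-05). Col1a1 was at 7.59 and 7.06 in DKO Dex+ arrays and at 6.14 and 6.17 in DKO PE (5.73 ± 0.59, adjusted p = 2.18e-05). Pdgfrb was at 5.31 and 5.53 in DKO Dex+ arrays and at 7.14 and 6.79 in DKO PE (6.40 ± 0.65, adjusted p = 1.9e-05). In DKO the differences between Dex+ cells and PE did not pass for Cav1 (0.15), Col1a1 (1.17) or Pdgfrb (-1.54). The other positive differences among the 10 largest were those of Meg3 (6.09), the chemokine Cxcl12 (5.91), Postn (5.59), Mmp2 (5.52), Snai2 (5.50), Col11a1 (5.47) and Synpo (5.45). For Meg3 the DKO Dex+ arrays, 7.24 and 5.85, were below DKO PE, 9.43 and 10.39, opposite in direction to WT. The 11 Meg3 probe sets gave -3.37 to -0.19 in DKO, and with all of them averaged the DKO change was -1.08 and did not pass (adjusted p = 0.0929). Of the 23 interstitial matrix genes 16 had a positive difference that passed and 0 a negative one, with list medians of 2.04 in WT and 0.28 in DKO.

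Of the 10 most negative differences, 5 were those of members of the lists, Tdgf1 and Dppa5a of the pluripotency genes and Cubn, Srgn and Spink1 of the endoderm lists. Cubn was at 12.06 and 11.52 in DKO Dex+ arrays and at 11.48 and 12.06 in DKO PE, against 6.38 and 6.28 in WT Dex+ and 11.90 and 12.67 in WT PE (-5.98 ± 0.57, adjusted p = 1.28e-05). Srgn was at 13.36 and 13.26 in DKO Dex+ arrays and at 13.56 and 13.67 in DKO PE (-5.89 ± 0.40, adjusted p = 5.99e-07). Cubn in DKO Dex+ cells thus overlapped with DKO PE. Pga5 (-5.60), Spink1 (-5.81), the membrane peptidase Dpp4 (-5.53), Trap1a (-6.17), Mageb16 (-6.19) and Dppa5a (-5.46) followed. Both remaining genes of the 10, Tdgf1 and the germ cell ATPase Morc1, changed in opposite directions in the 2 genotypes. Tdgf1 was at 7.01 and 7.23 in DKO Dex+ arrays and 6.12 and 5.37 in DKO PE (-6.76 ± 0.53, adjusted p = 2.28e-06). Morc1 was at 7.97 and 7.80 in DKO Dex+ arrays and 5.45 and 5.13 in DKO PE (-6.31 ± 0.63, adjusted p = 1.78e-05). In the DKO comparison alone Tdgf1 passed (1.38), but not without DKO Dex+ replicate 1 (1.49), DKO Dex+ replicate 2 (1.26) or DKO PE replicate 2 (1.00). Gata4 gave a difference of -2.59 ± 0.28, adjusted p = 3.27e-05, with DKO Dex+ arrays at 10.18 and 10.13 and DKO PE arrays at 10.37 and 10.48.

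In total 27 genes passed in opposite directions in WT and DKO. Rbp4, the plasma carrier of retinol, was one of them, at 11.20 and 10.70 in DKO Dex+ arrays and at 6.75 and 7.66 in DKO PE (3.75 ± 0.40, adjusted p = 2.05e-05). In WT it was at 5.37 and 5.65 in the WT Dex+ arrays and at 6.80 and 7.58 in the WT PE arrays, a change of -1.68 that did not pass without WT PE replicate 2 (-1.29, adjusted p = 0.0847). The list medians in DKO show where the genotypes ran apart. The endocytic list had a median of 0.00 in DKO with none of 8 genes passing, and the primitive endoderm factors had -0.20 with 1 of 8 lower. Since 4.47% of all genes passed in the DKO comparison, so few calls in lists of this size are near that share. In the test of the difference 3 endocytic genes and 4 endoderm factors were lower, against 3.53% of all genes. The proliferation list had -0.29 with none of 19 passing, and 12 of its members gave a negative difference that passed. Cardiac genes had the highest DKO median (1.61), with 11 of 19 higher in DKO Dex+ cells and none lower. Among them Myl7 was at 12.59 and 12.36 in DKO Dex+ arrays, above the 10.02 and 10.28 of WT Dex+ cells, and the WT difference minus the DKO difference was -2.33 ± 0.30, adjusted p = 0.000186.

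**Figure D4:**
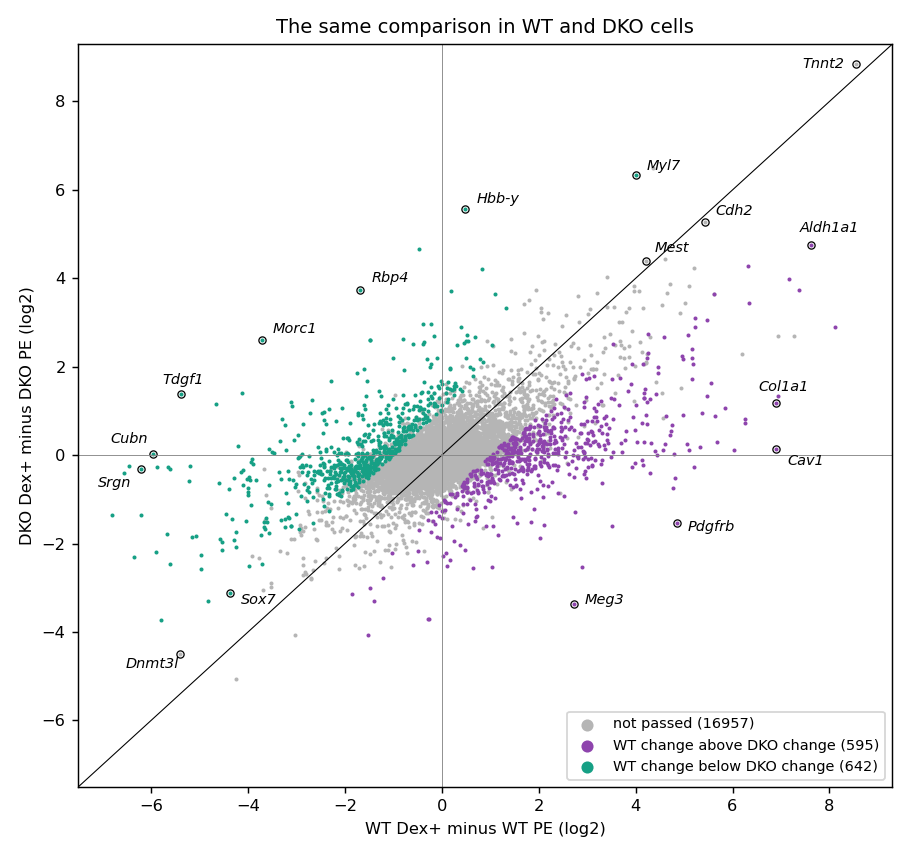
WT Dex+ minus WT PE (horizontal axis) against DKO Dex+ minus DKO PE (vertical axis) on the log2 scale for 18194 genes, with the line of equal changes. Purple and green points passed the test of the difference, 595 with a WT change above the DKO change and 642 with one below it. The sign is kept, so a gene with a stronger decrease in WT, such as Cubn, is green. Circles mark named genes such as Tnnt2 near the line and Cav1 and Cubn near a DKO change of 0.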

How the data were processed

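RNA from 10 groups of cells was hybridised to 20 Affymetrix MOE430v2 arrays, 2 per group. The deposited values are log2 expression values that the authors made with RMA in the Affy package of Bioconductor (version not given in the sources used here), from 50 ng of RNA labelled in 2 cycles. RMA makes the arrays share 1 distribution, so only relative changes can be measured. Of 45101 probe sets, 34958 had 1 gene symbol, 932 several and 9211 none, and the brightest probe set stood for each of 18194 genes. Groups were taken from the sample labels. limma (version 3.58.1, R 4.3.3) fitted a mean for each of the 10 groups over the 20 arrays, with 10 residual degrees of freedom, and p-values were adjusted by the Benjamini-Hochberg method over all genes. The SAM test of the study was not run. Scripts were tested on simulated data with 200 changed genes.

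The rule for named genes took the 15 largest changes in each direction, the 10 largest differences between WT and DKO in each direction and up to 8 members of each of 30 lists (520 genes, 490 measured). Col4a1 was added after its values were seen, and Cnn2 and Myl3 are named for their promoters only. The members, lists and tests were chosen with earlier results of these data known. Promoter sequences are from RefSeq (GRCm38.p6), and protein and probe sequences were not used here. Alternatives were other normalisation, filters, probe set choices, thresholds, blocks and leaving out each array. Scan days, chip lots and hybridisation runs were read from the deposited scanner reports.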

Additional observations from a re-analysis of the deposited data

Results flagged for a closer look

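The change from PE to Dex+ cells differed between WT and DKO cells for 1237 genes, by a test of the difference itself (limma, adjusted over 18194 genes, at least 2-fold). The 10 largest positive values of the WT difference minus the DKO difference, in log2 units, were those of Cav1 (6.76), Pdgfrb (6.40), Meg3 (6.09), Cxcl12 (5.91), Col1a1 (5.73), Postn (5.59), Mmp2 (5.52), Snai2 (5.50), Col11a1 (5.47) and Synpo (5.45). The 10 most negative values were those of Tdgf1 (-6.76), Morc1 (-6.31), Mageb16 (-6.19), Trap1a (-6.17), Cubn (-5.98), Srgn (-5.89), Spink1 (-5.81), Pga5 (-5.60), Dpp4 (-5.53) and Dppa5a (-5.46). Genotype and clone cannot be told apart here, and each genotype had 2 arrays per group.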

How the results depend on the processing

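The counts of genes that passed in the WT comparison, in the DKO comparison and in the test of their difference stayed within 1.5 times their values under other normalisations, probe set choices, filters and blocks. Between WT Dex+ and WT PE 2244 genes passed, 4278 with no fold limit, 751 with a 4-fold limit and 812 when the change was tested against 2-fold. Leaving out 1 array gave 1992 to 2416. Between DKO Dex+ and DKO PE 813 passed, 1464 with no fold limit, 223 with a 4-fold limit and 169 against 2-fold, and 611 to 687 without 1 array. The difference between the genotypes passed for 1237 genes, for 455 with a 4-fold limit and for 234 against 2-fold, and for 852 to 1253 without 1 array. These thresholds are stricter or looser by construction. Between WT Dex+ and WT Dex- 291 genes passed, 471 with no fold limit, 76 with a 4-fold limit, 50 against 2-fold and 156 when fitted on these 4 arrays alone. Without WT Dex+ replicate 2 that count was 161, without WT Dex+ replicate 1 it was 312, and the cause was not tested. Without probe sets that may cross-hybridise, Hnf4a was read by another probe set and gave 0.062 between WT Dex+ and WT PE and 0.064 in the difference between genotypes, while a dimmer probe set of the same kind gave -1.39 in WT and 0.44 in DKO. The 30 genes with the largest WT changes kept their calls in each alternative fitted.

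Within the WT and the DKO comparison, PE and Dex+ arrays of the same replicate number are not tied by the labels. Their deviations correlated at -0.262 in WT and 0.1147 in DKO. Between genotypes the numbers go with scan day for PE, and deviations correlated at 0.3605 for PE and 0.2822 for Dex+ cells, and at 0.3613 for WT Dex- with WT Dex+ cells. With a replicate block 2256 genes passed in WT (1120 higher, 1136 lower), 815 in DKO and 1290 in the difference between genotypes. A crossed pairing of the WT Dex+ arrays, added after seeing the data, gave 2248. With 2 arrays in a group, their number limits the precision of each value.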
